A study of Bos taurus with 2 samples.

Results

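The piRNA pathway genes described here are PIWIL2, PIWIL1, DDX4, MAEL, TDRD1, TDRD9, ASZ1 and MOV10L1. They were taken by gene symbol from the feature lists of both libraries, and all 8 were found among 35643 features. The list was drawn up with the difference between the libraries already in view, so the values that set blastoid against blastocyst are a description and support nothing further. Nuclei came from bovine (Bos taurus) blastoids and from day-8 blastocysts, both labelled WT and both frozen before nuclei were isolated. A blastoid is a blastocyst-like structure formed in a microwell, here from 8 bEPSCs, 8 bXEN cells and 16 bTSCs, which are cultured bovine stem cell lines. The cells were aggregated in ACL medium with LIF, activin A, Chir99021 and the CEPT cocktail. How many blastoids or embryos were pooled is not given in the sources used here. Each group was 1 library of the 10x Genomics 3′ v3.1 kit, so there was no replicate and no test. All intervals are exact 95% intervals that cover counting error only.

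piRNAs are small RNAs bound by proteins of the PIWI family, and in the animal germline they guide the silencing of transposons. PIWIL1 and PIWIL2 are PIWI proteins. DDX4 and MOV10L1 are RNA helicases of this pathway, TDRD1 and TDRD9 carry Tudor domains that bind methylated arginines of PIWI proteins, TDRD9 is a helicase as well, and ASZ1 and MAEL act in the granules of germ cells where piRNAs are made and used. The genes are best known from testis and ovary, and PIWI genes are also transcribed in mammalian oocytes and early embryos.

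The libraries differed in depth. There were 7575395 UMIs in 1957 blastoid barcodes (median 2012 per barcode) and 7029253 UMIs in 944 blastocyst barcodes (median 6920). After filtering, 1914 blastoid and 827 blastocyst barcodes were left, and none of their barcode sequences occurred in both libraries. Blastocyst nuclei formed a hypoblast-like class of 390 nuclei, a trophectoderm-like class of 235, an epiblast-like class of 75 and a shallow, unnamed cluster of 127 with a median of 1914 UMIs. The epiblast-like class carried NANOG, SOX2, PRDM14 and LIN28B. Of these, SOX2 and PRDM14 were also raised in the hypoblast-like class, as was the epiblast marker OTX2. NANOG was at 121 CPM in epiblast-like and 19.8 CPM in hypoblast-like nuclei. The epiblast-like class also held the hypoblast factor HNF4A at 563 CPM, while hypoblast-like nuclei had 543 CPM, and the source of HNF4A there was not tested. CPM is a gene's share of the UMIs summed over a group, on the scale usual for counts-per-million values. The blastoid library gave a trophectoderm-like class of 154 nuclei, an unnamed cluster of 140 led by genes such as LMX1A and DCC, and 1620 ribosomal-rich barcodes with a median of 1926 UMIs, of which 15.7% were from ribosomal protein genes. No blastoid cluster was named hypoblast-like or epiblast-like, so the trophectoderm-like class was the only class named from clusters in both libraries. The ribosomal-rich barcodes were left without a lineage name. Beside the other blastoid clusters they were enriched for 11 hypoblast markers, such as APOA1, AFP and TTR. They were also enriched for 10 trophectoderm markers, such as CDX2 and KRT8.

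PIWIL2 was the PIWI gene with a clear signal in the blastocyst. It had 480 UMIs in the hypoblast-like, 482 in the trophectoderm-like, 137 in the epiblast-like and 54 in the shallow nuclei. These counts are 146 CPM (134 to 160), 208 CPM (190 to 227), 175 CPM (147 to 207) and 115 CPM (86.3 to 150). The gene was present in each embryonic class, and the trophectoderm-like level lay above the hypoblast-like level with intervals that do not overlap. The epiblast-like interval overlapped both. In the blastoid library PIWIL2 had 2 UMIs in the trophectoderm-like nuclei, 0 in the unnamed cluster and 1 in the ribosomal-rich barcodes, 3 in all. For the count of 0 in the unnamed cluster the upper end of the exact interval is 1.95 CPM, and the floor of 3 UMIs, used for folds against a count of 0, is 1.58 CPM.

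PIWIL1, the other PIWI protein gene, was close to undetected in either library. It had 5 UMIs in the blastocyst, of which 2 were in hypoblast-like and 3 in trophectoderm-like nuclei, and 3 in the blastoid. Both libraries were at or near the 3 UMIs taken as the floor, and no fold is given. The other PIWI paralogs were as sparse, with 2 blastocyst and 10 blastoid UMIs for PIWIL3, and 0 and 4 for PIWIL4.

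Among the helicases, DDX4 (VASA), a classical germ cell marker, had 41 UMIs in hypoblast-like, 30 in trophectoderm-like, 14 in epiblast-like and 4 in shallow blastocyst nuclei. Its levels of 12.5, 12.9, 17.9 and 8.51 CPM had overlapping intervals, so no class stood apart. In the blastoid it had 5, 1 and 4 UMIs in the trophectoderm-like, unnamed and ribosomal-rich groups. MOV10L1, the helicase that binds piRNA precursors, had 25, 9, 6 and 0 UMIs in the same 4 blastocyst groups, and 10, 3 and 6 in the 3 blastoid groups. Its level ran from 3.88 to 7.66 CPM in the 3 named blastocyst classes and from 1.58 to 4.13 CPM in the blastoid groups. The hypoblast-like interval (4.93 to 11.3 CPM) lay above those of the unnamed (up to 4.62 CPM) and ribosomal-rich (up to 4.13 CPM) blastoid groups, and the other intervals overlapped.

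Each of these helicases has a relative that is transcribed widely in somatic cells. DDX3X, related to DDX4, had 1012 blastocyst and 801 blastoid UMIs. MOV10, related to MOV10L1, had 1335 and 230 UMIs and was 6.34-fold lower in the blastoid (5.51 to 7.32). In the trophectoderm-like class it had 115 blastoid and 272 blastocyst UMIs, or 47.5 and 117 CPM. How reads shared between these relatives were assigned is not given in the sources used here.

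TDRD9, the Tudor domain helicase, was found in every blastocyst class. It had 438 UMIs in hypoblast-like, 343 in trophectoderm-like, 141 in epiblast-like and 30 in shallow nuclei, or 134, 148, 180 and 63.8 CPM. The epiblast-like level was 1.35-fold the hypoblast-like level (1.11 to 1.63). The trophectoderm-like level was 1.11-fold the hypoblast-like level with an interval that includes no difference (0.96 to 1.28). In the blastoid TDRD9 had 10 UMIs in trophectoderm-like nuclei, 2 in the unnamed cluster and 6 in ribosomal-rich barcodes.

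TDRD1, the Tudor scaffold that binds PIWIL2, had the largest fold between the trophectoderm-like and hypoblast-like classes among the members tested. It had 407 UMIs in hypoblast-like, 50 in trophectoderm-like, 59 in epiblast-like and 24 in shallow nuclei. These are 124 CPM (112 to 137), 21.6 CPM (16.0 to 28.5), 75.3 CPM (57.3 to 97.1) and 51.0 CPM (32.7 to 75.9). The named classes therefore ran from hypoblast-like through epiblast-like to trophectoderm-like, and no 2 of their intervals overlapped. The blastoid held 4, 2 and 9 UMIs in its trophectoderm-like, unnamed and ribosomal-rich groups.

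ASZ1, an ankyrin repeat protein that sits at mitochondria in germ cells, had 144, 65, 44 and 15 UMIs in hypoblast-like, trophectoderm-like, epiblast-like and shallow blastocyst nuclei. Its levels were 43.9, 28.0, 56.1 and 31.9 CPM. The trophectoderm-like class was lower than both other named classes. MAEL, needed for transposon silencing in the testis, had 65, 34, 17 and 5 UMIs, or 19.8, 14.7, 21.7 and 10.6 CPM with overlapping intervals. In the blastoid ASZ1 had 8, 5 and 2 UMIs and MAEL 0, 11 and 3 in the trophectoderm-like, unnamed and ribosomal-rich groups. MAEL in the unnamed blastoid cluster, at 5.80 CPM (2.90 to 10.4), was above its 0 UMIs in the blastoid trophectoderm-like class, whose exact interval ends at 1.52 CPM.

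**Figure D1:**
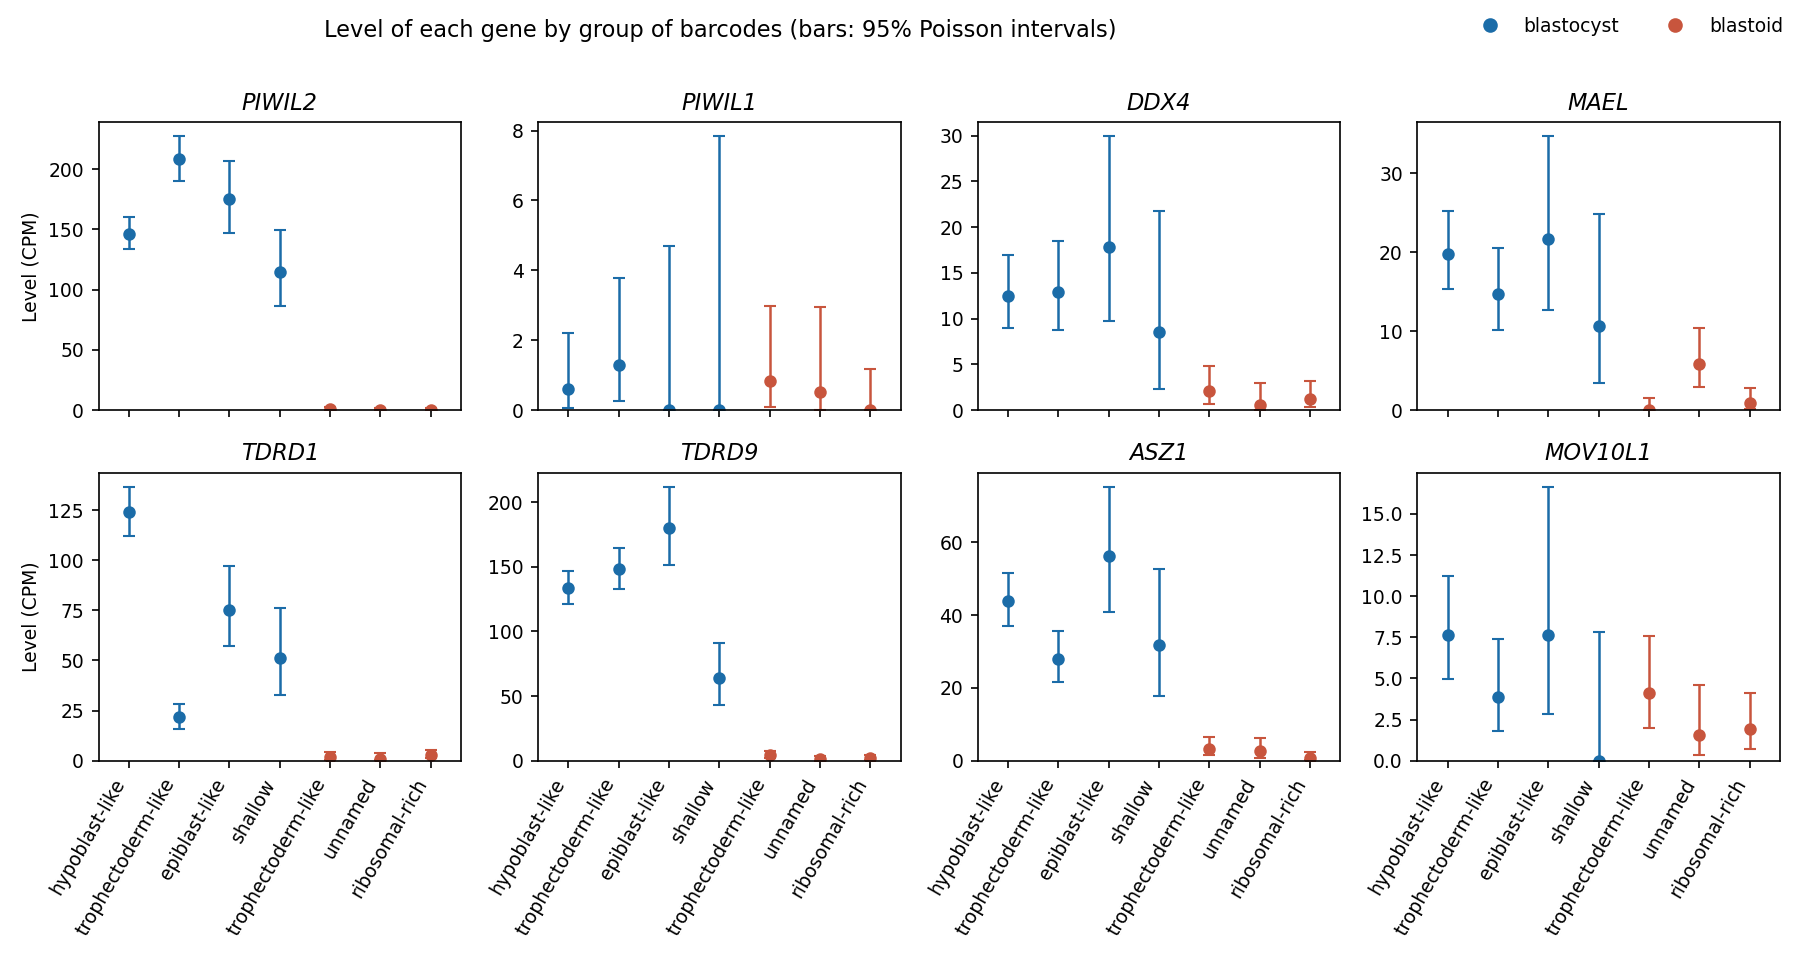
Level of each of the 8 genes in CPM (linear axes, each with its own range) in the 4 blastocyst groups (blue) and 3 blastoid groups (red), with points for summed UMIs and bars for exact 95% Poisson intervals. PIWIL2 and TDRD9 stand high in each named blastocyst class, TDRD1 is low in the trophectoderm-like class at 21.6 CPM, and the blastoid groups lie near 0 for most genes.

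The lineages of the blastocyst were then set against each other, which asks in which embryonic class each gene is transcribed. The clusters were made without the 8 genes and without the marker genes. Of 7 members with at least 30 UMIs in the trophectoderm-like and hypoblast-like sums, TDRD1 alone was at least 2-fold apart. It was 5.75-fold lower in trophectoderm-like nuclei (4.28 to 7.88). Over all 12061 genes with that many UMIs, 16.5% were at least 2-fold lower and 12.2% at least 2-fold higher, so 1 of 7 is near the background. PIWIL2 was 1.42-fold higher in trophectoderm-like nuclei (1.25 to 1.62) and ASZ1 1.57-fold lower (1.16 to 2.13). For MOV10L1, with 9 against 25 UMIs, the level was 1.96-fold lower with an interval of 0.89 to 4.78. MAEL (1.35-fold lower, 0.88 to 2.11) and DDX4 (1.04-fold higher, 0.62 to 1.70) had intervals that include no difference as well. At resolution 1.0 DDX4 was higher in the trophectoderm-like class, with a log2 ratio of 1.38, where a cluster of 130 nuclei at 26.0 CPM of DDX4 had no class name. PIWIL2 and TDRD1, whose proteins act together, thus differed in opposite directions between these classes.

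Against the hypoblast-like class, none of the 7 members tested was 2-fold apart in the epiblast-like class, where 6.20% of 11027 genes were at least 2-fold lower and 3.96% higher. TDRD1 was 1.65-fold lower there (1.25 to 2.21). Against the trophectoderm-like class, 2 of 6 members tested were at least 2-fold higher in the epiblast-like class, TDRD1 by 3.49-fold (2.35 to 5.19) and ASZ1 by 2.00-fold (1.33 to 2.98). The background was 14.2% higher and 17% lower over 10048 genes. All these classes come from the same library, so the differences have no replicate check. The epiblast folds of TDRD1 also depended on which nuclei were called epiblast-like, as given below.

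The 50 TDRD1 UMIs of the trophectoderm-like class were set beside what the class markers HNF4A and GATA2 leave in the other class. The source of these TDRD1 UMIs was not tested. HNF4A, a hypoblast gene, was at 10.4 CPM in trophectoderm-like nuclei, or 1.91% of its hypoblast-like level. That level came from 24 UMIs, 14 of them in 1 nucleus. GATA2, a trophectoderm gene, was in hypoblast-like nuclei at 1.47% of its trophectoderm-like level. TDRD1 was at 17.4% of its hypoblast-like level in the trophectoderm-like class. After each nucleus was thinned to 2000 UMIs, TDRD1 was found in 21.4% of 383 hypoblast-like nuclei (17.4% to 25.9%) and in 3.02% of 232 trophectoderm-like nuclei (1.22% to 6.12%), against 0.431% for HNF4A in the latter. Without thinning the TDRD1 shares were 50.5% of 390 and 15.7% of 235 nuclei, whose median depths were 7686 and 8710 UMIs.

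Finer clustering of the blastocyst nuclei, into 8 clusters, split these levels further. TDRD1 was at 19.5 CPM in the 228 trophectoderm-like nuclei, and at 125 and 96.7 CPM in hypoblast-like clusters of 160 and 68 nuclei. Other genes high in the hypoblast-like clusters left unlike shares in the 228 nuclei. Between the 228 and the 160 nuclei, KIT was at 20.4 and 730 CPM, VWF at 3.99 and 66.7 CPM. GATA4 was at 1.33 and 32.6 CPM, and GATA6 at 543 and 1086 CPM. The unnamed clusters of 130 and 102 nuclei, in which HNF4A reached 399.7 and 614 CPM, had 133 and 109 CPM of TDRD1. The cluster of 102 also had NANOG at 81.9 CPM, and 42.2% of its nuclei belonged to the hypoblast-like class before. A cluster of 16 epiblast-like nuclei, with NANOG at 193 CPM, had 2 UMIs of TDRD1, for an interval from 1.46 to 43.5 CPM, while PIWIL2 was at 229 CPM and TDRD9 at 169 CPM there. This low value did not extend to every definition of epiblast: 82 nuclei picked by their NANOG and PRDM14 UMIs had 113 CPM of TDRD1 (90.5 to 139) and 118 CPM of PIWIL2, with HNF4A at 482 CPM. The order of the epiblast among the classes therefore depended on how its nuclei were chosen. HNF4A was at 415 CPM in the cluster of 16, with GATA6 at 193 CPM, against 584 and 1086 CPM in the hypoblast-like cluster of 160.

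Within the hypoblast, PIWIL2 and DDX4 varied between the finer clusters. PIWIL2 was at 117 and 96.7 CPM in the hypoblast-like clusters of 160 and 68 nuclei, and at 205 CPM (179 to 234) in the unnamed cluster of 130 nuclei, of which 97.7% belonged to the hypoblast-like class before. DDX4 had 7, 2 and 28 UMIs in the same 3 clusters, or 5.30, 3.95 and 26.0 CPM. TDRD1 did not follow this split, at 125, 96.7 and 133 CPM with overlapping intervals. A ribosomal-rich cluster of 62 barcodes, with 0% from the hypoblast-like class, had 185 CPM of PIWIL2 but 2 UMIs of TDRD1. Its median was 1267 UMIs, and it held GATA2 at 181 CPM and HNF4A at 58.6 CPM.

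**Figure D2:**
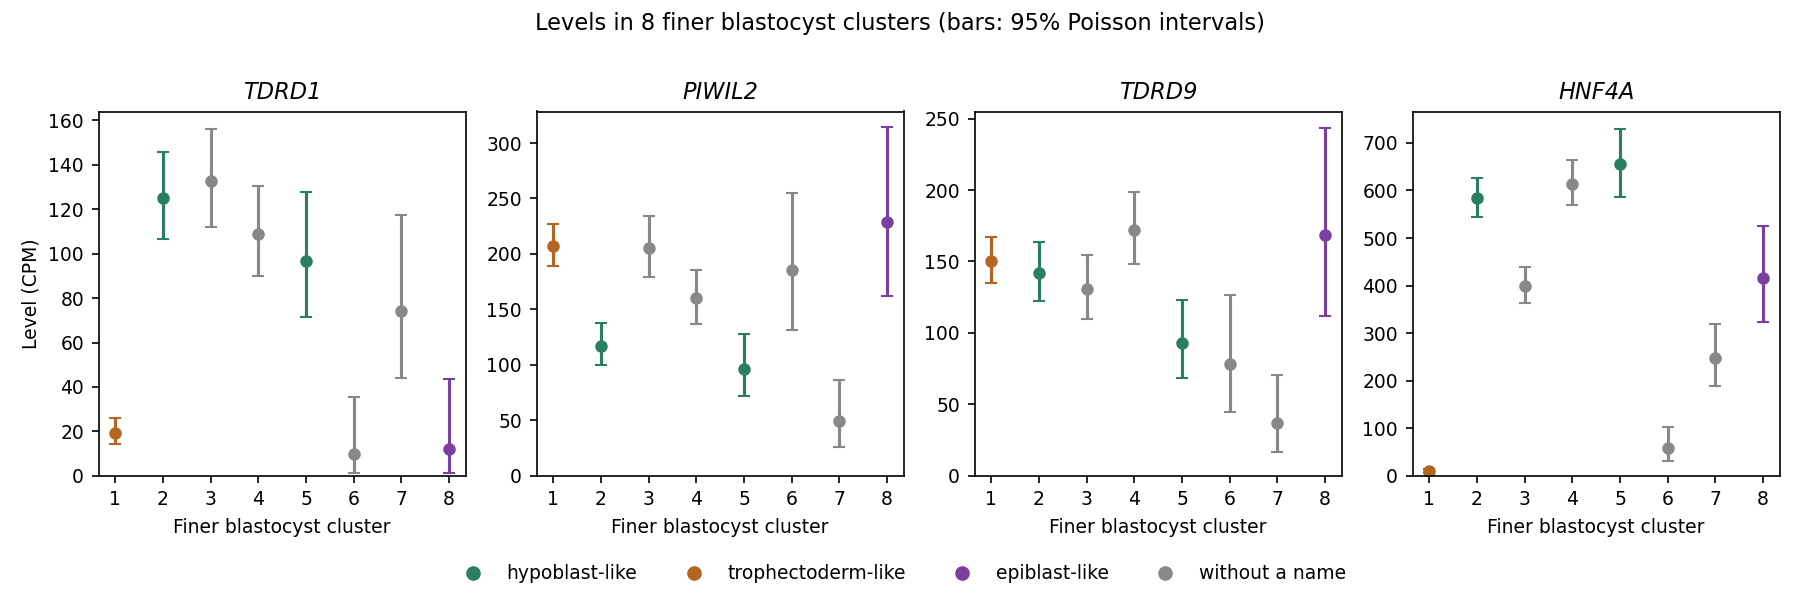
CPM (linear axes) of TDRD1, PIWIL2, TDRD9 and the hypoblast gene HNF4A in the 8 finer blastocyst clusters, with bars for exact 95% Poisson intervals and colours for the class name of each cluster. TDRD1 is lowest in cluster 1 (trophectoderm-like), cluster 6 (ribosomal-rich) and cluster 8 (16 epiblast-like nuclei), where PIWIL2 lies at 207, 185 and 229 CPM.

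Counts were uneven between blastocyst nuclei. The 1153 PIWIL2 UMIs lay in 358 of 827 nuclei, with up to 25 in a nucleus, and the 83 nuclei with the most held 52.2% of them. The 952 TDRD9 UMIs lay in 366 nuclei, and the top 83 held 50.2%. By the same measure the top 83 nuclei held 35.1% of 1335 MOV10 UMIs and 40.1% of 1012 DDX3X UMIs, but 62.1% of the UMIs of the trophectoderm gene GATA2 and 54.1% of those of DPPA3. In the hypoblast-like class, with 480 UMIs of PIWIL2 and 451 of DDX3X, the top 39 nuclei held 55.6% and 36.1% of them. In the epiblast-like class, with 137 and 142 UMIs, the top 8 nuclei held 48.2% and 34.5%. In the trophectoderm-like class the top 24 nuclei held 38.4% of 482 PIWIL2 and 39.5% of 281 DDX3X UMIs, and 35 and 8 nuclei had at least 5 UMIs. This share depends on the count, which is alike for the genes in the former classes but not in the latter. Depth varies between nuclei as well, and its part in this unevenness was not tested.

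At 2000 UMIs per nucleus, at least 1 of the 8 genes was detected in 52.2% of 383 hypoblast-like (47.1% to 57.3%), 52.2% of 232 trophectoderm-like (45.5% to 58.7%) and 56.0% of 75 epiblast-like nuclei (44.1% to 67.4%). In the shallow cluster the share was 31.7% of 63 nuclei, and 64 more were below 2000 UMIs. In the blastoid at least 1 gene was detected in 3.33% of 150 trophectoderm-like nuclei, 2.16% of 139 unnamed nuclei and 1.60% of 687 ribosomal-rich barcodes, with 933 ribosomal-rich barcodes below that depth. No blastoid nucleus had 2 of the genes at that depth, while 16.2%, 16.8% and 16.0% of the hypoblast-like, trophectoderm-like and epiblast-like nuclei had at least 2. For PIWIL2 alone the shares were 19.3%, 31.9% and 22.7% in those classes, and 1 of 976 blastoid barcodes.

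**Figure D3:**
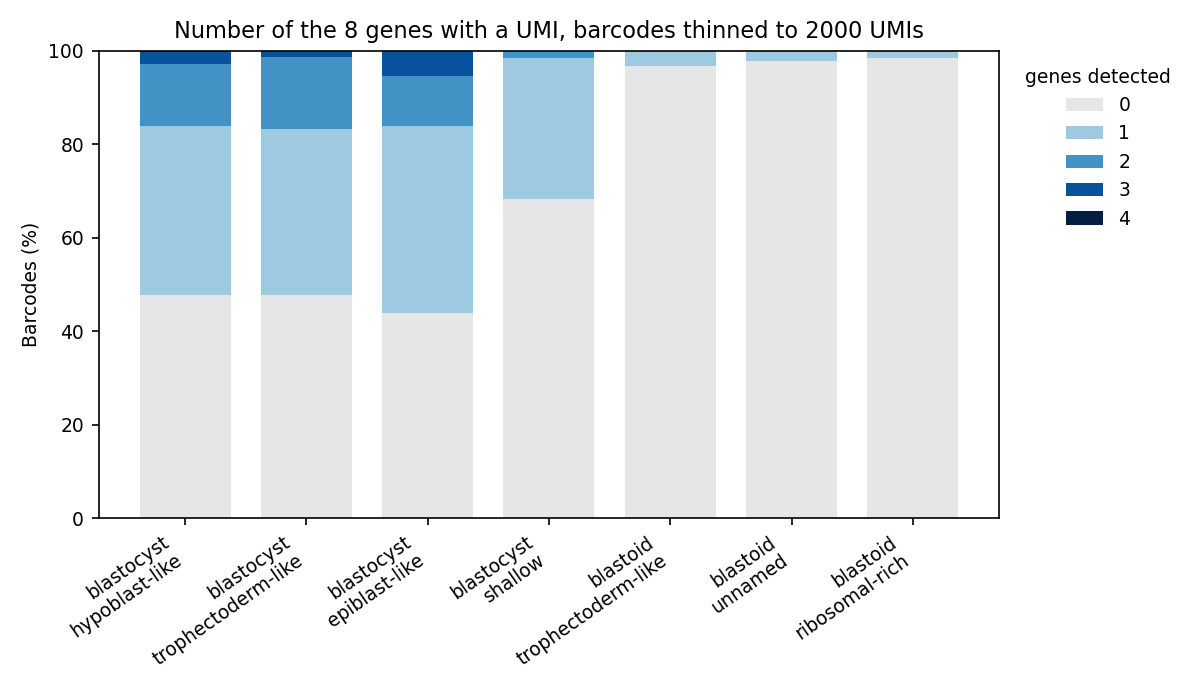
Share of barcodes (%) with a UMI of 0, 1, 2, 3 or 4 of the 8 genes after thinning to 2000 UMIs, for the 4 blastocyst and 3 blastoid groups. Bars of the named blastocyst classes show 44.0% to 47.8% of nuclei without any of the genes, against 96.7% to 98.4% in the blastoid groups.

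Joint detection in a nucleus was set beside the product of the shares. In 356 hypoblast-like nuclei thinned to 4000 UMIs, PIWIL2 and TDRD9 were both found in 41 nuclei, and the product of their shares gives 34.9. TDRD9 and TDRD1 were both found in 51, against 41.3, with TDRD1 in 44.3% of nuclei with TDRD9 and 32.0% of those without, and PIWIL2 and TDRD1 in 38, against 38.8. In 223 trophectoderm-like nuclei PIWIL2 and TDRD9 were both found in 42, against 37.6. These are descriptions of sparse counts, and no test was made of them.

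Over the whole libraries, 6 of 7 members with at least 30 UMIs were at least 4-fold lower in the blastoid, and 6.71% of 15646 genes were. PIWIL1 had too few UMIs to enter, and the others passed this minimum through the blastocyst. PIWIL2 was 419.7-fold lower (143 to 2038), TDRD9 57.8-fold (36.4 to 97.9), TDRD1 39.3-fold (23.6 to 70.7), ASZ1 19.5-fold (11.6 to 35.4), DDX4 9.72-fold (5.05 to 21.0) and MAEL 9.44-fold (5.41 to 17.8). MOV10L1, with 19 against 40 UMIs, was 2.30-fold lower (1.30 to 4.20). By log2 ratio PIWIL2 ranked 2 from the lowest of all genes tested, with counts under 3 raised to 3, so that among genes at that floor the blastocyst count sets the rank. The median over all genes was -0.10 on the log2 scale, and 11.5% of genes were at least 4-fold higher in the blastoid. Without the ribosomal-rich and shallow clusters the log2 ratio of PIWIL2 was -7.95 instead of -8.71, with the 2 blastoid UMIs left there raised to the floor of 3.

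Within the trophectoderm-like class, which both libraries hold, 6 members had at least 30 UMIs and each was at least 4-fold lower in the blastoid. The background was 4.21% of 11525 genes. All 6 passed the minimum through the blastocyst class, so their count beside this share supports nothing further. PIWIL2 had 2 against 482 UMIs, a 252-fold difference (69.3 to 2083). TDRD9 had 10 against 343 (35.8-fold, 19.2 to 75.3), TDRD1 4 against 50 (13.1-fold, 4.79 to 49.8) and ASZ1 8 against 65 (8.48-fold, 4.06 to 20.5). DDX4 had 5 against 30 UMIs (6.26-fold, 2.41 to 20.7). MAEL had 0 against 34 UMIs, which is 11.8-fold lower with the 0 raised to the floor of 3 UMIs. The exact interval of its level in the blastoid class ends at 1.52 CPM, against a level of 14.7 CPM in the blastocyst class. The other members had too few UMIs to enter. MOV10L1 had 10 against 9 UMIs and a ratio of 1.06 (0.39 to 2.96), and PIWIL1 had 2 against 3. GATA2, a trophectoderm marker, was at 335 CPM in the blastoid and 477 CPM in the blastocyst class, and the median of all genes was 0.06 on the log2 scale. Beside the rest of their own library, GATA2, GATA3, TFAP2C and TP63 were raised in both classes. KRT8, KRT18, PTGS2 and CLDN4 were raised in the blastocyst class only, and TFAP2A and TEAD4 in the blastoid class only. The classes may therefore hold unlike cells. When nuclei were picked by marker UMIs instead of clusters, TDRD1 had 5 against 34 UMIs and a log2 ratio of -2.17 instead of -3.71, and PIWIL2 had 1 against 462 UMIs. The same way of picking gave 37 hypoblast-like blastoid nuclei with 568210 UMIs and 263 blastocyst ones with 2043326. PIWIL2 had 1 UMI in the former and 338 in the latter, TDRD1 1 and 240, and TDRD9 3 and 273. Those 37 blastoid nuclei also held the trophectoderm gene GATA2 at 146 CPM, against 3.43 CPM in the 263.

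**Figure D4:**
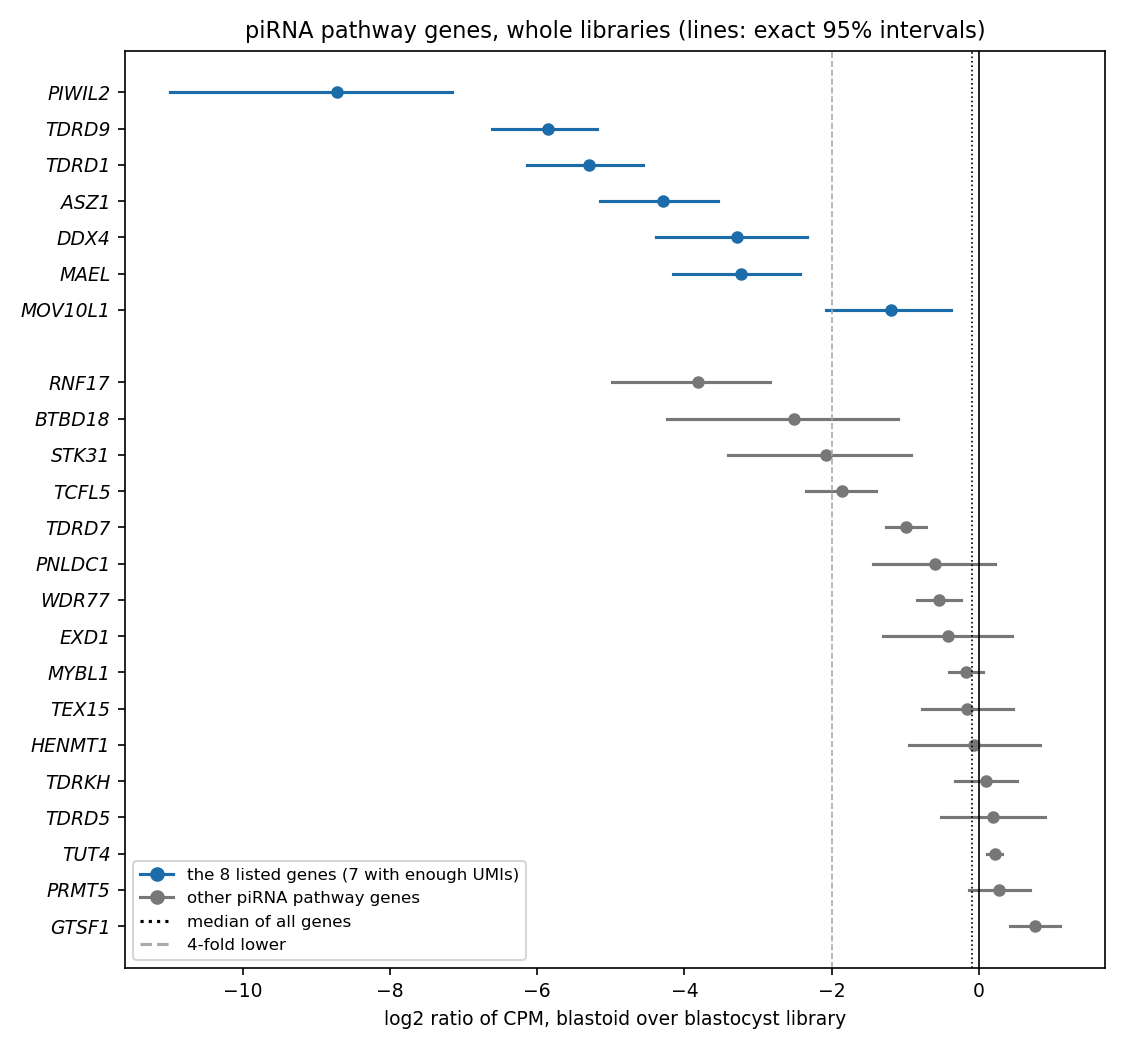
Log2 ratio of CPM, blastoid over blastocyst, over whole libraries for the 7 listed genes with at least 30 UMIs (blue) and 16 other piRNA pathway genes (grey), with lines for exact 95% intervals, a dotted line at the median of all genes and a dashed line at 4-fold lower. PIWIL2 to MAEL lie left of the dashed line, while most of the other pathway genes lie near 0.

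Other genes of the pathway were taken from a list of 31, of which 28 had a matching symbol and 16 had at least 30 UMIs. Of these 16, 3 were at least 4-fold lower in the blastoid, 0 at least 4-fold higher and 13 neither, with a median log2 ratio of -0.30 against -0.10 over all genes, of which 6.71% were lower and 11.5% higher by that fold. The 3 were RNF17, a Tudor protein of male germ cells also called TDRD4, with 9 against 116 UMIs (14.1-fold, 7.16 to 31.6), BTBD18, a regulator of pachytene piRNA transcription, with 5 against 26 (5.68-fold, 2.15 to 18.9), and STK31, a Tudor domain protein, with 8 against 31 (4.23-fold, 1.90 to 10.7). TCFL5, a testis transcription factor, had 50 against 167 UMIs (3.65-fold lower, 2.65 to 5.11). Among the 13 that were not 4-fold apart, TDRKH, the Tudor protein of the trimming step, had 106 blastoid and 91 blastocyst UMIs, TDRD5 41 and 33, the methyltransferase HENMT1 24 and 23, and the transcription factor MYBL1 308 and 318. GTSF1, a zinc finger cofactor of PIWI proteins, was 1.69-fold higher in the blastoid (1.34 to 2.15), with 209 against 113 UMIs. SPOCD1, which links piRNAs to DNA methylation, had 20 blastoid UMIs and 0 in the other library, which is below the minimum of 30 for the counts above.

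In the trophectoderm-like class 10 of those genes had enough UMIs, RNF17 was the gene at least 4-fold lower with 3 against 45 UMIs (15.7-fold, 5.03 to 78.8) beside a background of 4.21%, and the median log2 ratio was -0.04. Between the blastocyst classes TDRKH was low in the trophectoderm-like nuclei, as TDRD1 was, but unlike TDRD1 it was highest in the epiblast-like class, with 7 UMIs in trophectoderm-like, 47 in hypoblast-like and 32 in epiblast-like nuclei, or 3.02, 14.3 and 40.8 CPM. It was 4.75-fold lower in the trophectoderm-like than in the hypoblast-like class (2.13 to 12.4), and 2.85-fold higher in the epiblast-like than in the hypoblast-like class (1.76 to 4.56). TCFL5 was 3.07-fold lower in the trophectoderm-like than in the hypoblast-like class (1.99 to 4.90). Of 10 listed genes tested between those classes, these 2 were at least 2-fold lower and 0 higher, near the background of 16.5% lower and 12.2% higher. Between the epiblast-like and hypoblast-like classes 4 of 10 were at least 2-fold apart, beside 3.96% of all genes higher and 6.20% lower. TDRKH and GTSF1, the latter 2.23-fold (1.30 to 3.74), were higher in the epiblast-like class. TDRD7, with 19 against 189 UMIs (2.38-fold, 1.48 to 4.04), and TEX15, with 0 against 31, were lower.

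Lists of other kinds gave the following counts over whole libraries. Of 13 genes of the miRNA and siRNA machinery, such as the AGO and TNRC6 genes, 0 were 4-fold apart, with a median of -0.36. Of 11 other germline genes tested, 3 were at least 4-fold lower in the blastoid, against 6.71% of all genes: the meiotic axis gene SYCP2 with 36 against 511 UMIs, the bromodomain gene BRDT with 6 against 236, and DPPA3 (STELLA), a maternal and primordial germ cell factor, with 6 against 477. The median of that list was -0.71. Among 16 repressors of germline genes 1 was at least 4-fold higher in the blastoid, the DNA methylation cofactor UHRF1 with 402 against 27 UMIs (13.6-fold, 9.23 to 20.9), and 0 were lower, against 11.5% of all genes higher and 6.71% lower. DNMT1, the maintenance DNA methyltransferase it works with, had 1403 and 447 UMIs. The part of either gene in the piRNA gene levels was not tested. Of 13 genes of other transposon defences, MOV10 was lower and the exonuclease TREX1 higher, beside 6.71% and 11.5% of all genes, with a median of -0.97. In the trophectoderm-like class 12 of them had enough UMIs, 0 were lower and TREX1 was higher, beside 4.21% and 6.12% of all genes, and the median was -0.03.

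Markers of germ cells, oocytes, sperm and cumulus cells were looked at, since the genes are known from germ cells. Of 9 primordial germ cell markers 7 had a UMI in the blastocyst, with a summed level from 146 CPM in trophectoderm-like to 853 CPM in hypoblast-like nuclei and 55.4 to 79.1 CPM in the blastoid groups. Of its 3762 UMIs in the blastocyst KIT had 2755, DPPA3 477, TFAP2C 427, PRDM1 49, SOX17 42, DND1 11 and DAZL 1, and NANOS3 and NANOS2 were at 0. In the blastoid TFAP2C had 256 of 488 UMIs, KIT 149, PRDM1 40, SOX17 22, DND1 10, DPPA3 6, NANOS3 3, DAZL 2 and NANOS2 0. KIT and DPPA3 were much lower there and PRDM1 and DND1 had like counts. The part of germ cells in the result was not tested. Of 11 oocyte markers found, ZP4, FIGLA and H1-8 were at 0 in the blastocyst and ZP2 at 1 UMI, while BMP15 had 134 and ZAR1 35 of 196 UMIs. The sum was 21.3 to 32.3 CPM in the blastocyst groups and 6.00 to 27.9 CPM in the blastoid groups. Of 9 sperm markers found, PRM2, ODF1 and AKAP4 were at 0 in the blastocyst, while LDHC had 92, GAPDHS 17, SPATA18 14 and CRISP2 14 of 141 UMIs. In the blastoid PRM2 was at 0, ODF1 had 2 UMIs, AKAP4 had 1 and LDHC had 83. The sum of the list was 17.0 to 23.2 CPM in the blastocyst and 13.6 to 29.8 CPM in the blastoid groups. Of 8 cumulus markers FOXL2 was at 0 in both libraries and FSHR, at 612 UMIs, made up most of a sum of 44.7 to 167 CPM in the blastocyst groups, against 30.6 to 71.9 CPM in the blastoid, where HAS2 had the most, with 158 of 344 UMIs against 5 in the blastocyst.

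The neighbours of the 8 genes on the bovine chromosomes, as ordered in RefSeq ARS-UCD2.0, were looked up by symbol, and all 8 genes matched there. Of their 16 next genes 12 had at least 30 UMIs, 2 were at least 4-fold lower in the blastoid and 4 at least 4-fold higher, beside 6.71% and 11.5% of all genes. PIWIL2's neighbours POLR3D and SLC39A14 had 267 and 273 blastoid UMIs against 388 and 911 in the embryo. Those of TDRD1, CCDC186 and VWA2, had 1186 and 215 against 2290 and 165. The 2 lower genes were ASPG, beside TDRD9, with 0 against 66 UMIs, and CFTR, beside ASZ1, with 7 against 70. The 4 higher genes were FZD10 (519 against 8) and RIMBP2 (197 against 14), beside PIWIL1, ILDR2 (268 against 8), beside MAEL, and ATP5MJ (1530 against 322), beside TDRD9.

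Across the 7 clusters of both libraries, the genes whose log2(CPM + 1) followed PIWIL2 most closely, of those with a symbol among 11939 features, were RESTB (Pearson r = 0.996), CD48 (0.993) and TDRD9 (0.992), followed by PWWP2A, NIPSNAP2, TIPARP, MFF, SH3BP4, ARL14EPL and DIPK2A, down to 0.980. Counting features without a symbol, TDRD9 ranked 5. ASZ1 reached 0.965, TDRD1 0.937 and MAEL 0.841. The 7 points come from 2 libraries, 4 from the blastocyst and 3 from the blastoid, and are not independent. Over 753 thinned blastocyst nuclei the highest Spearman correlation with PIWIL2 was 0.159, for SLC39A14, the gene next to PIWIL2 on the chromosome. The correlation is weak, and at such sparse counts it is given as a value only.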

How the data were processed

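Single-nucleus libraries of bovine blastoids and day-8 blastocysts were analysed, 1 per group. The authors deposited raw UMI counts. Per the file headers the software was Cell Ranger 7.2.0, while the submitters' processing notes name Cell Ranger 7.1.0 and Seurat 4.3.0. Genome build, annotation, intron counting and cell calling are not given in the sources used here, so no coordinates are printed.

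Barcodes with at least 500 genes and under 10% UMIs from 13 mitochondrial genes were kept, and the top Scrublet scores (0.8% per 1000 barcodes, scanpy 1.11.5) were removed, 30 in the blastoid and 6 in the blastocyst. Each library was clustered on its own, without marker, member or listed genes (2000 variable genes, 30 principal components, 15 neighbours, leidenalg 0.10.2 at resolution 0.5). A class name needed 3 markers with at least 100 UMIs and 1.5 times the CPM of other clusters, and 1.5 times as many as any other class. Clusters with over 5% ribosomal UMIs, or a median under 1/3 of their library's, got no name. This naming rule was chosen after the names were seen. Counts were summed, with Poisson, Clopper-Pearson or exact conditional 95% intervals, and genes with at least 30 UMIs in 2 sums were compared, past 4-fold between libraries or 2-fold between classes. Counts under 3 were raised to 3 when genes past a fold were counted and medians taken. The members and gene lists were chosen with earlier results of these data known. All 8 members are named with their counts, and listed genes by name from 50 UMIs, with the exceptions of PIWIL3, PIWIL4, HENMT1, STK31, BTBD18 and SPOCD1, named after their values were seen. The steps were tested on simulated data.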

Additional observations from a re-analysis of the deposited data

Results flagged for a closer look

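The barcodes that the filters left out held a signal of TDRD1. In the 117 blastocyst barcodes removed, with 179320 UMIs in all, TDRD1 had 12 UMIs, or 66.9 CPM (34.6 to 117), above the 3 UMIs taken as the floor. The 827 kept blastocyst barcodes had TDRD1 at 78.8 CPM. In the same removed barcodes PIWIL2 had 3 UMIs and TDRD9 had 2. The 43 removed blastoid barcodes, with 94389 UMIs, held 0 UMIs of each of the 8 genes, which allows up to 39.1 CPM at the upper end of the Poisson interval.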

How the results depend on the processing

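The number of members at least 4-fold lower in the blastoid was 6 over the whole libraries and 6 in the trophectoderm-like class, and under the alternatives run it stayed within 5 to 6. The number at least 2-fold apart between the blastocyst trophectoderm-like and hypoblast-like classes was 1 and became 2 under 4 alternatives. MOV10L1 joined TDRD1 with at least 4000 UMIs per barcode (2 members), at resolution 0.3 (2 members) and when the shallow cluster was named by its markers (2 members), a setting added after the data were seen. DDX4 joined at resolution 1.0 (2 members). The log2 ratio of TDRD1 between those classes ran from -2.91 to -2.23. TDRD9's ratio there, 0.15, became -0.16 with at least 1000 genes per nucleus. Of the shares of nuclei, over genes, classes and settings, 39 moved, mostly with the thinning, and 81 did not. No paired analysis was possible because each group had 1 library. With 1 library per group, the sampling of embryos and blastoids cannot be told apart from the conditions. Blastoid counts were 3 to 19 UMIs per gene over the whole library and lower within classes. They limit the precision of every fold given between the libraries, and PIWIL1 has none.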
